A study of Danio rerio with 8 samples.

Results

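The genes described here are 10 markers of the cranial neural crest, taken by name: foxd3, sox10, crestin, tfap2a, snai1b and sox9b as early crest genes, twist1a, twist1b and dlx2a as genes of the ectomesenchyme, and mitfa as the pigment cell gene. They matched 13 of the 32189 gene IDs in the count table, of which 11 had enough counts to be tested among 18075 tested genes. For sox9b, dlx2a and mitfa the symbol table gives the capital symbols SOX9, DLX2 and MITF, each on a pair of IDs that it does not separate into paralogues, so both IDs are described and neither is called a or b.

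RNA was measured in zebrafish hindbrains dissected with surrounding tissue, 1 hindbrain per library, in 4 control and 4 ca_fgfr1 embryos. All 8 embryos are labelled with the strain Tg(hsp70:ca-fgfr1) and aged 24 to 25 hours post-fertilisation (hpf), and all were kept at 28.5°C, moved at 22 hpf to 38.5°C for 30 min and returned to 28.5°C for 2 h. The control embryos have the genotype wt and the ca_fgfr1 embryos a constitutively active Fgfr1, an Fgf receptor that signals without ligand. Per the study's methods, transgenic fish were outcrossed and the wild-type siblings of the same heat-shocked clutch, recognised by qPCR after RNA extraction, served as controls. The hsp70 promoter responds to heat in cells of all tissues, so the receptor was not directed to the crest.

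Neural crest cells arise at the border of the neural plate, leave the dorsal neural tube and migrate. In the head, streams of crest cells leave the hindbrain and fill the pharyngeal arches, where they become ectomesenchyme, the source of cartilage, bone and connective tissue. Other crest cells become pigment cells, glia and peripheral neurons. Fgf signals are known to act on the arches, where they take part in the survival and patterning of ectomesenchyme.

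Library totals ranged from 13173019 to 20541155 counts, and levels are given as CPM, the count of a gene scaled to a common library total after TMM, a factor that makes libraries comparable. CPM holds no correction for gene length, so levels are compared between libraries and not between genes. In a list of 10 Fgf response genes, all 10 were higher on average in ca_fgfr1, as were 8298 of the 18075 tested genes. The median of the 10 was 1.57 on the log2 scale (0.02 to 2.135), with summed levels of 967 to 1797 CPM against 312 to 542 CPM in control. In edgeR 6 of them had an unadjusted p under 0.05, beside 2.14% of all tested genes with a higher mean. Their smallest adjusted p in edgeR was 0.0408, so in edgeR none of the 10 reached the adjusted p of 0.01 used below. The study, which used DESeq2, reports etv5b, a gene of this list, among the top genes induced. The gene il17rd was lowest in ca_fgfr1 replicate 1 (10.1 CPM against 17.7 to 68.2 CPM). Control replicate 1 stood apart across the table in both directions: it was the lowest library for 23.8% and the highest for 26.9% of all tested genes. Its correlation with its own group was 0.893, against 0.926 to 0.953 for the other 7 libraries. The ca_fgfr1 replicate 1 stood apart in arch genes, as described below, and was the lowest library for 10.3% of all tested genes. The log2 fold changes of the 10 genes that rest on these 2 libraries are given with and without them. Correlations were not computed with control replicate 1 alone left out. The dissection held other tissues too, and in such bulk samples fewer cells of a type and less RNA per cell cannot be told apart.

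None of the 11 tested IDs met the study's criteria (an adjusted p of at most 0.01, a change of at least 2-fold and a normalised count above 30 in every library of a group) in edgeR, DESeq2 or limma-voom. For snai1b and twist1b the count rule alone barred this in each of these tools, whatever their change. In edgeR 0.0166% of all tested genes met the criteria. At an unadjusted p under 0.05, edgeR gave 2 of the 11 IDs, both named SOX9 and both higher in ca_fgfr1, where 5.34% of all tested genes fell under that p in either direction and 2.14% did so with a higher mean. The same IDs were the 2 under that p in DESeq2 and in limma-voom, beside 6.82% and 5.36% of all tested genes. No ID had groups that did not overlap, against 3.34% of all tested genes. The mean was lower in ca_fgfr1 for 6 of the 11 IDs, against 54.1% of all tested genes, and the median log2 fold change was -0.03, beside -0.04 for all tested genes.

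**Figure D1:**
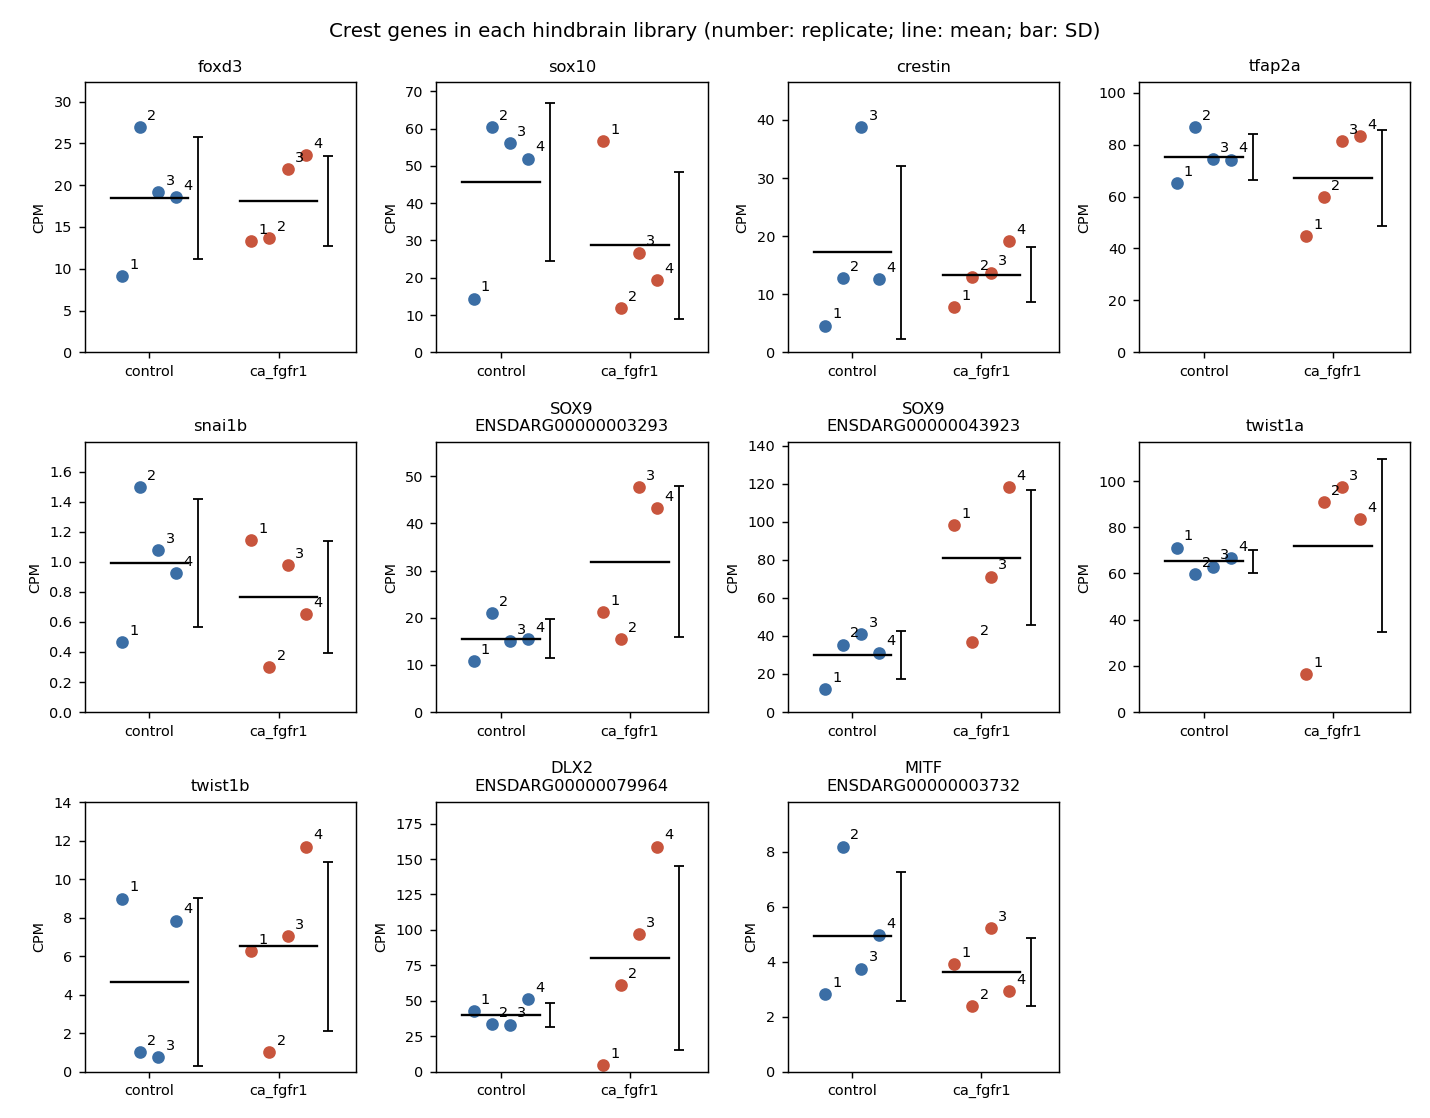
Level in CPM of each of the 11 tested crest gene IDs in the 4 control (blue) and 4 ca_fgfr1 (red) libraries, with the replicate number beside each point, a line at the group mean and a bar of 1 SD. For twist1a and for DLX2 ENSDARG00000079964 the ca_fgfr1 replicate 1 lies below the other 7 libraries (16.4 and 4.63 CPM), and for sox10 control replicate 1 lies below the other controls (14.4 CPM).

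Among the early crest genes, foxd3 encodes a forkhead factor of premigratory crest. Its levels were 9.09, 26.9, 19.1 and 18.5 CPM in control and 13.3, 13.6, 21.9 and 23.6 CPM in ca_fgfr1. The groups overlapped, with means of 18.4 ± 7.30 and 18.1 ± 5.41 CPM (SD, n = 4 each), and the log2 fold change was -0.03 ± 0.34 (SE; edgeR adjusted p = 0.995). Its 95% interval ran from -0.78 to 0.73 on the log2 scale, so changes within that span, in either direction, were not excluded.

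The Sox family factor sox10 acts in migrating crest and is needed for its pigment, glial and neuronal derivatives. Its levels were 14.4, 60.3, 56.1 and 51.9 CPM in control and 56.6, 11.9, 26.7 and 19.4 CPM in ca_fgfr1. The low control was replicate 1 and the high ca_fgfr1 library was replicate 1, while the other 3 controls lay above the other 3 ca_fgfr1 libraries. Over all 8 libraries the means were 45.7 ± 21.1 and 28.7 ± 19.6 CPM (SD, n = 4 each) and the log2 fold change was -0.67 ± 0.51 (SE; edgeR adjusted p = 0.875). Leaving out ca_fgfr1 replicate 1 gave -1.24 ± 0.48 (edgeR unadjusted p = 0.0292, adjusted p = 0.748), where 6.6% of all tested genes had an unadjusted p under 0.05. Leaving out control replicate 1 gave -0.97 (edgeR unadjusted p = 0.0488, adjusted p = 0.188), where 26.3% of all tested genes had an unadjusted p under 0.05. The summed level of a list of otic markers was highest in ca_fgfr1 replicate 1 (1016 CPM). The part of otic or other dissected tissue in the sox10 values was not tested.

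The crest marker crestin is a multicopy, retroelement-derived transcript found in zebrafish crest, so its counts may be shared with copies elsewhere. Its levels were 4.59, 12.8, 38.7 and 12.6 CPM in control and 7.73, 12.9, 13.7 and 19.1 CPM in ca_fgfr1. Control replicate 3 was the highest library and control replicate 1 the lowest, so the controls enclosed all 4 ca_fgfr1 libraries. For crestin the log2 fold change was -0.37 ± 0.54 (SE; edgeR adjusted p = 0.939), and its sign turned when control replicate 3 was left out (0.39).

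The transcription factor tfap2a acts at the neural plate border and in crest, and is also expressed in epidermis. It varied least among the early crest IDs, with 65.2, 86.6, 74.3 and 74.2 CPM in control and 44.6, 59.7, 81.5 and 83.2 CPM in ca_fgfr1. The groups overlapped, and the lowest library was ca_fgfr1 replicate 1. For tfap2a the log2 fold change was -0.16 ± 0.24 (SE; edgeR adjusted p = 0.941), with a 95% interval from -0.70 to 0.38. The summed level of 6 epidermis markers ranged from 7143 to 18345 CPM in control and from 5563 to 10582 CPM in ca_fgfr1. Most of that sum was krt4 (5541 to 14680 CPM in control and 4428 to 8364 CPM in ca_fgfr1). The part of epidermis in the tfap2a values was not tested.

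The Snail family repressor snai1b takes part in the epithelial-mesenchymal transition of crest. It was near the limit of detection, with 5 to 24 counts per library. Its levels ranged from 0.468 to 1.4995 CPM in control and from 0.299 to 1.15 CPM in ca_fgfr1, and the groups overlapped. On the log2 scale ca_fgfr1 differed from control by -0.37 ± 0.51 (SE; adjusted p = 0.935 in edgeR).

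SOX9 factors act in early crest and later drive cartilage formation, and are also expressed in the otic vesicle and in neural progenitors. SOX9 ENSDARG00000043923 had 11.9, 35.4, 41.1 and 31.2 CPM in control and 98.5, 36.6, 71.2 and 118 CPM in ca_fgfr1. Of the ca_fgfr1 libraries 3 lay above every control, while replicate 2 lay within the control range. The means were 29.9 ± 12.7 and 81.2 ± 35.4 CPM (SD, n = 4 each). The log2 fold change was 1.44 ± 0.43 (SE; edgeR unadjusted p = 0.00626, adjusted p = 0.789), which placed it at rank 140 of the 18075 tested genes. DESeq2 gave an adjusted p of 0.146.

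SOX9 ENSDARG00000003293 had 10.8, 20.99, 15.0 and 15.5 CPM in control and 21.2, 15.5, 47.7 and 43.3 CPM in ca_fgfr1. Replicates 3 and 4 of ca_fgfr1 lay well above all controls, replicate 1 was just above the highest control, and replicate 2 was within their range. The log2 fold change was 1.03 ± 0.38 (SE; edgeR unadjusted p = 0.0188, adjusted p = 0.866), at rank 351. Leaving out ca_fgfr1 replicate 3 or 4 gave 0.76 and 0.82, with edgeR unadjusted p of 0.0841 and 0.0714 and adjusted p of 0.917 and 0.969. The higher mean of both SOX9 IDs kept its direction without control replicate 1 (log2 fold changes of 1.18 for ENSDARG00000043923 and 0.89 for ENSDARG00000003293) and without ca_fgfr1 replicate 1 (1.33 and 1.19). The summed level of the otic marker list ranged from 560 to 793 CPM in control and from 508 to 1016 CPM in ca_fgfr1, and that of the hindbrain neural list from 1771 to 2374 CPM and from 1783 to 2358 CPM. The part of these tissues in the SOX9 values was not tested.

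**Figure D2:**
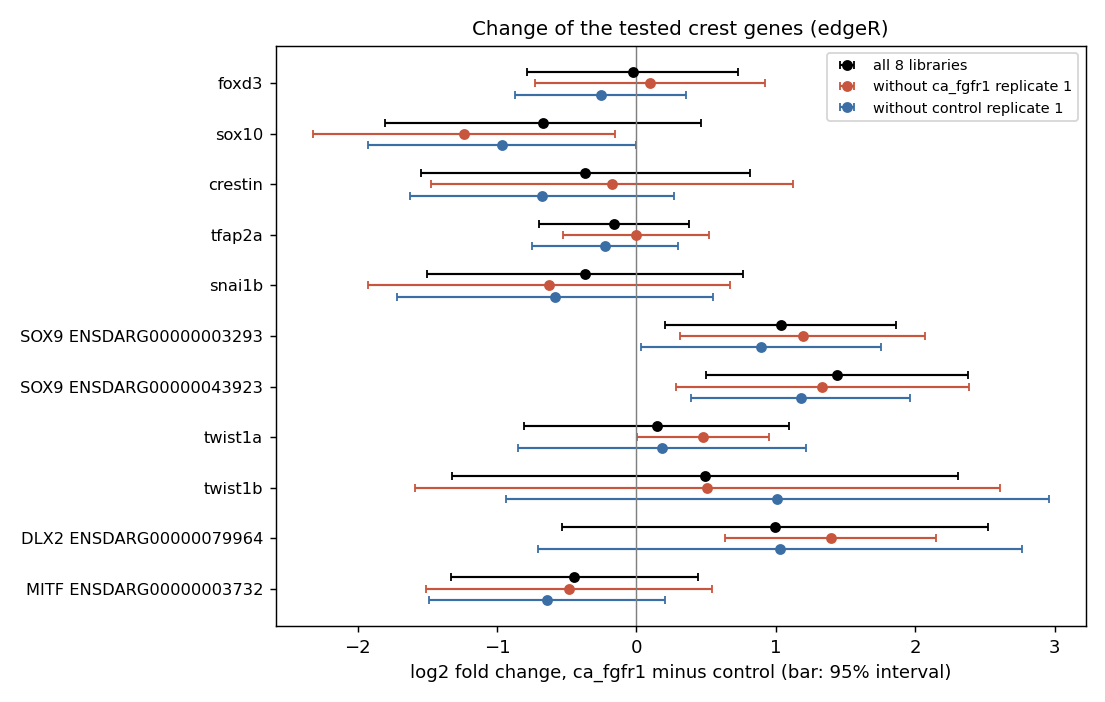
Log2 fold change of each tested crest gene ID in edgeR, as ca_fgfr1 minus control with its 95% interval, from all 8 libraries (black), without ca_fgfr1 replicate 1 (red) and without control replicate 1 (blue). With all libraries the intervals of the SOX9 IDs lie above 0. Without ca_fgfr1 replicate 1 those of twist1a (0.48) and DLX2 ENSDARG00000079964 (1.39) do so too. That of sox10 lies below 0 without ca_fgfr1 replicate 1 (-1.24) and without control replicate 1. The ca_fgfr1 replicate 1 was the lowest library for twist1a and this DLX2 ID and the highest ca_fgfr1 library for sox10, so leaving it out moves each estimate this way. The intervals are not adjusted for the number of genes.

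Among the ectomesenchyme genes, twist1a encodes a basic helix-loop-helix factor of cranial mesenchyme. The controls were close together at 71.2, 59.8, 63.0 and 66.8 CPM, a coefficient of variation of 7.51%. The ca_fgfr1 libraries had 16.4, 90.9, 97.4 and 83.4 CPM, so that replicate 1 lay below every control and the other 3 above every control. The means were 65.2 ± 4.90 and 72.1 ± 37.5 CPM (SD, n = 4 each), and the log2 fold change was 0.14 ± 0.43 (SE; edgeR adjusted p = 0.975). Without ca_fgfr1 replicate 1 it was 0.48 ± 0.21 (edgeR unadjusted p = 0.0483, adjusted p = 0.748), where 6.6% of all tested genes had an unadjusted p under 0.05.

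DLX2 homeobox factors mark crest that has entered the arches, and are also expressed in the forebrain. DLX2 ENSDARG00000079964 had 43.0, 33.7, 33.2 and 51.1 CPM in control and 4.63, 60.9, 96.8 and 159 CPM in ca_fgfr1. As for twist1a, ca_fgfr1 replicate 1 was below every control and the other 3 were above every control. Over 8 libraries its log2 fold change was 0.995 ± 0.69 (SE; edgeR adjusted p = 0.870), and limma-voom gave 0.18. Without ca_fgfr1 replicate 1 it was 1.39 ± 0.34 (edgeR unadjusted p = 0.00225, adjusted p = 0.513), where 6.6% of all tested genes had an unadjusted p under 0.05. Without ca_fgfr1 replicate 4, the highest library, it was 0.39 (edgeR unadjusted p = 0.593). The other DLX2 ID, ENSDARG00000017174, had 33 counts over all libraries and was not tested.

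The paralogue twist1b followed neither pattern. Its levels were 8.99, 1.02, 0.769 and 7.86 CPM in control and 6.25, 1.02, 7.07 and 11.7 CPM in ca_fgfr1. The 3 libraries near 1 CPM were controls 2 and 3 and ca_fgfr1 replicate 2, and the other 5 lay at 6.25 CPM or above, a 15.2-fold range that did not follow the groups. The log2 fold change was 0.49 ± 0.82 (SE; edgeR adjusted p = 0.947), and ca_fgfr1 replicate 1 was not low. Leaving out single libraries moved it from 0.0192 (without ca_fgfr1 replicate 4) to 1.01 (without control replicate 1). RSEM divides reads that fit several genes, so the split between close paralogues, such as the TWIST, SOX9 and DLX2 copies, is uncertain.

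The low level in ca_fgfr1 replicate 1 extended to further arch genes. Together with the 3 tested ectomesenchyme IDs, a list of arch and ectomesenchyme genes held 21 tested IDs. The ca_fgfr1 replicate 1 was the lowest library for 15 of them (71.4%), against 10.3% of all tested genes. With the member IDs left out, it was the lowest for 13 of 18 (72.2%). For hand2, a factor of the ventral arch also expressed in heart and peripheral neurons, this library had 0.334 CPM against 17.3 to 91.1 CPM in the other 7 libraries. For barx1, a homeobox factor of arch cartilage precursors, it had 0.573 CPM against 9.18 to 41.9 CPM.

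The same library had 0.143 CPM of dlx1a, the neighbour and partner of a DLX2 gene, against 3.54 to 20.3 CPM elsewhere. PRRX1 ENSDARG00000042027, a homeobox gene of arch mesenchyme, had 5.15 CPM against 30.4 to 52.5 CPM, and ednrab, a receptor for the endothelin signal of the ventral arch, had 27.7 CPM against 62.3 to 123 CPM. Not all arch genes were low there: jag1b, a Notch ligand of the dorsal arch, had 44.1 CPM, and gsc, a homeobox gene of arch ectomesenchyme, had 6.35 CPM, within the range of the other libraries for jag1b and the highest of the 8 for gsc. Markers of some other tissues near the arches were low in this library too. The summed level of a list of 4 pharyngeal arch and endoderm marker IDs was 23.1 CPM against 60.0 to 95.5 CPM in the others. Most of that sum was foxa2, at 19.2 CPM against 20.3 to 72.5 CPM in the others. The study's pharyngeal arch marker foxi1 was at 3.77 CPM against 17.5 to 36.3 CPM, and pax9 was at 3 counts. The part of endoderm in this sum was not tested. The ca_fgfr1 replicate 1 was also the lowest library for 5 of 6 epidermis markers. The otic marker sum was instead the highest of the 8 libraries there, at 1016 CPM against 508 to 813 CPM in the others. The head mesenchyme sum (888 CPM) and the hindbrain neural sum (2358 CPM) lay within the range of the others. Of the 7 head mesenchyme IDs, 1 was lowest in this library, foxf2a at 2.91 CPM against 6.04 to 18.3 CPM. How much arch tissue each dissection held was not tested.

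**Figure D3:**
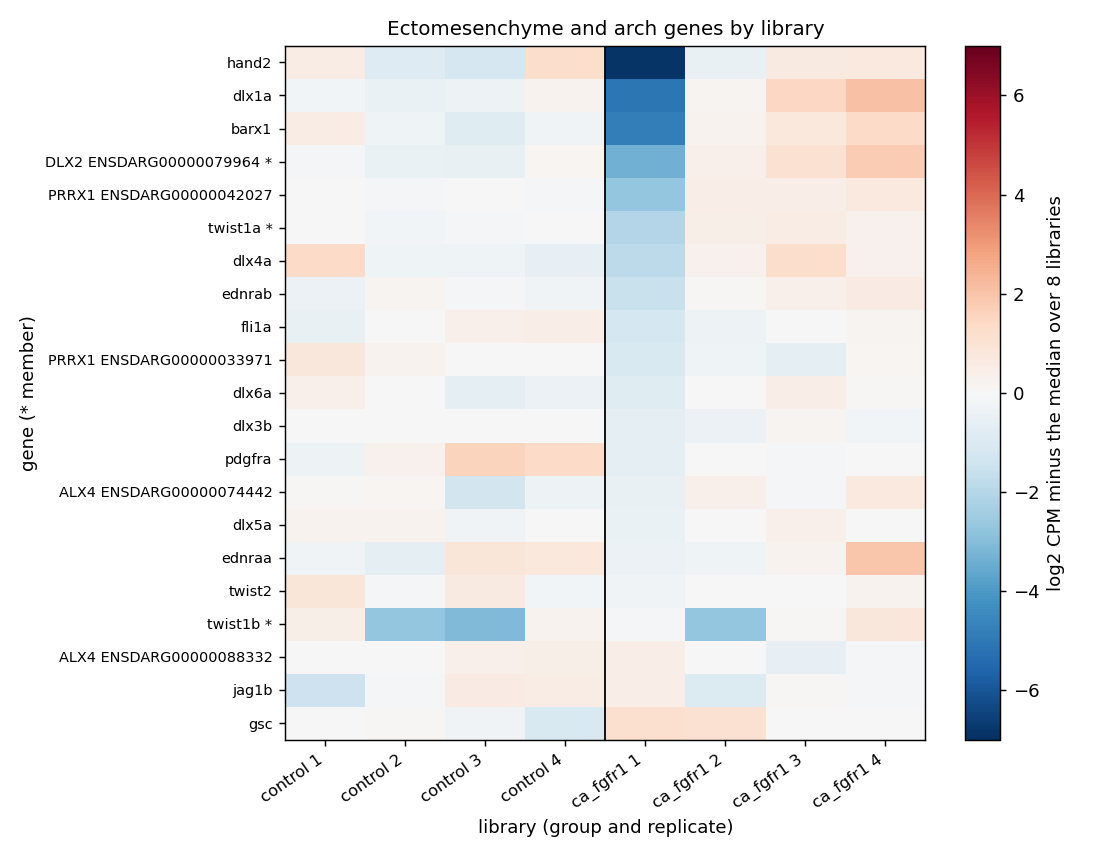
Each row is a tested ectomesenchyme or arch gene ID (members of the 10 genes carry a star) and each column a library, with colour giving log2 CPM minus the median of the 8 libraries for that gene. The column of ca_fgfr1 replicate 1 holds the lowest value in 15 of the 21 rows, with hand2, dlx1a and barx1 farthest below their medians.

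In ca_fgfr1 replicate 1 the early crest genes were mixed. Its summed level of the 7 early crest IDs was 243 CPM, within the range of 116 to 308 CPM over the libraries, but SOX9 ENSDARG00000043923 (98.5 CPM) and sox10 (56.6 CPM) made up much of it, and tfap2a was at its lowest there. Of 19 other early crest IDs, 6 (31.6%) were lowest in this library, against 10.3% of all tested genes, and 4 (21.1%) were highest, against 8.45%. Among the low IDs were prdm1a, a zinc finger factor of the neural plate border, at 11.1 CPM against 41.7 to 141 CPM elsewhere, and the Snail family gene snai1a at 16.7 CPM against 40.8 to 135 CPM. The high IDs were PAX3 ENSDARG00000010192 (35.6 CPM against 9.57 to 22.0 CPM), PAX7 ENSDARG00000100398 (30.2 CPM against 11.9 to 27.3 CPM) and both ZIC2 IDs (144 and 158 CPM). The study also lists Zic genes as markers of dorsal hindbrain progenitors, and pax7a and pax7b as markers of medial ones. The part of hindbrain progenitors in these values was not tested. The sum of the ectomesenchyme IDs was 27.8 CPM against 94.7 to 254 CPM. Control replicate 1 had the lowest early crest sum (116 CPM) and an ectomesenchyme sum of 123 CPM that was close to that of control replicate 4 (126 CPM). It was the lowest library for 4 of the 7 early crest IDs (foxd3, crestin and both SOX9 IDs), beside 23.8% of all tested genes. In the other 3 ca_fgfr1 libraries the ectomesenchyme sum was 153, 202 and 254 CPM, each above the highest control. That sum holds twist1a, twist1b and the DLX2 IDs, and the wider list of ectomesenchyme and arch genes without them had 454, 568 and 646 CPM in these libraries, which overlapped the 515 to 613 CPM of the controls.

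The pigment cell gene was measured at a low level. MITF factors are the main regulators of melanocyte fate, and mitfa is also accompanied in zebrafish by a paralogue of the pigmented retina. MITF ENSDARG00000003732 had 2.81, 8.18, 3.74 and 4.98 CPM in control and 3.91, 2.39, 5.23 and 2.94 CPM in ca_fgfr1. The ca_fgfr1 libraries lay between 2.39 and 5.23 CPM, with 1 below every control, and the log2 fold change was -0.45 ± 0.40 (SE; edgeR adjusted p = 0.890). It was -0.09 without control replicate 2, the highest library, and -0.70 without ca_fgfr1 replicate 3. MITF ENSDARG00000037833 had 1 count, in ca_fgfr1 replicate 3, and 0 counts in the other 7 libraries, where 0 allows a level of up to 0.143 to 0.281 CPM (3 counts, counting error only).

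Other crest genes were read from lists of early crest, ectomesenchyme, pigment, and glial and peripheral neuron genes, with the IDs above left out. Of 59 tested IDs, 24 had a higher and 35 a lower mean in ca_fgfr1, and their median was -0.13 on the log2 scale. Of all tested genes, 54.1% had a lower mean, with a median of -0.04. At an unadjusted edgeR p under 0.05 there were 1 higher and 4 lower IDs, beside 2.14% and 3.21% of all tested genes, and none at an adjusted p of 0.05, which 0.0498% of all tested genes reached. DESeq2 gave 1 at that adjusted p and 6 at an unadjusted p under 0.05, and limma-voom gave 0 and 5. Of all tested genes, DESeq2 gave 0.454% and 6.82% at these thresholds and limma-voom 0.0553% and 5.36%. By class, the lower means were 10 of 19 early crest, 9 of 18 ectomesenchyme, 12 of 16 pigment and 5 of 7 glial and neuronal IDs, hand2 being counted in both of the lists that hold it. These lists are not specific to crest. The study reports phox2a and phox2bb, of the last list, in hindbrain noradrenergic neurons at a later stage, and Zic and pax7 genes in hindbrain progenitors.

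The smallest p belonged to foxc1a, a forkhead gene of periocular and head mesenchyme that serves crest and mesoderm derivatives. Its levels were 14.5, 15.9, 15.2 and 13.1 CPM in control and 3.96, 6.04, 7.24 and 7.64 CPM in ca_fgfr1, so the groups did not overlap. The log2 fold change was -1.24 ± 0.27 (SE; edgeR unadjusted p = 0.000824, adjusted p = 0.405). It met the study's criteria in DESeq2 (adjusted p = 0.00412), as 0.249% of all tested genes did, and in no edgeR or limma-voom setting. The related gene foxc1b, in the same early crest list, overlapped between the groups, with 30.7 to 35.4 CPM in control. It had 10.9 CPM in ca_fgfr1 replicate 1 and 27.6 to 41.2 CPM in replicates 2 to 4. In a list of 7 tested head mesenchyme IDs, 6 were lower on average in ca_fgfr1, with sums of 637 to 1930 CPM in control and 530 to 888 CPM in ca_fgfr1, and the part of that tissue in the foxc1a values was not tested.

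The growth factor receptor gene pdgfra, used by migrating crest and mesenchyme, had 24.1, 38.3, 91.7 and 80.9 CPM in control and 20.04, 31.03, 28.3 and 31.7 CPM in ca_fgfr1. Controls 3 and 4 were high and control 1 lay within the ca_fgfr1 range, and the groups differed by -1.08 ± 0.39 on the log2 scale (SE; edgeR unadjusted p = 0.0191, adjusted p = 0.866). PRRX1 ENSDARG00000033971 had 159, 112, 91.7 and 94.0 CPM in control and 44.7, 75.9, 60.0 and 101 CPM in ca_fgfr1, where replicate 4 overlapped the controls (-0.69 ± 0.29, edgeR unadjusted p = 0.0367, adjusted p = 0.866). The unadjusted p of pdgfra was above 0.05 without control replicate 3 (0.0647) or 4 (0.0535) or ca_fgfr1 replicate 1 (0.0563). That of PRRX1 ENSDARG00000033971 was above 0.05 without control replicate 1 or 2 or ca_fgfr1 replicate 1, 2 or 3 (0.0525 to 0.104). The other PRRX1 ID, ENSDARG00000042027, differed from it, with 30.4 to 34.5 CPM in control. It had 45.6 to 52.5 CPM in ca_fgfr1 replicates 2 to 4, above every control, and 5.15 CPM in replicate 1. For gsc, taken up as the gene with the next smallest p, the log2 fold change was 0.89 ± 0.41 (edgeR unadjusted p = 0.0517, adjusted p = 0.866).

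Among glial genes, erbb3b, which encodes a neuregulin receptor needed for the migration of glia along nerves, had 1.12, 2.999, 4.57 and 2.78 CPM in control. It had 1.57, 0.538, 1.67 and 0.915 CPM in ca_fgfr1, where control replicate 1 was within their range (-1.29 ± 0.50, edgeR unadjusted p = 0.0262, adjusted p = 0.866). Its unadjusted p was above 0.05 without control replicate 2 or 3 or ca_fgfr1 replicate 2 or 4 (0.0502 to 0.0959). NGFR ENSDARG00000088708, a neurotrophin receptor gene, had 1.41, 2.59, 4.41 and 3.86 CPM in control and 5.87, 7.18 and 4.83 CPM in ca_fgfr1 replicates 1 to 3 and 8.89 CPM in replicate 4. Its groups did not overlap (1.11 ± 0.39, edgeR unadjusted p = 0.0155, adjusted p = 0.866), and the unadjusted p was 0.0592 without ca_fgfr1 replicate 4. The related ID, NGFR ENSDARG00000089223, had a log2 fold change of 0.07.

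In the pigment list no ID had an unadjusted p under 0.05. The melanin synthesis gene tyr, which encodes tyrosinase, differed by -0.72 on the log2 scale (adjusted p = 0.866 in edgeR), and dct, another enzyme of melanin synthesis, by 0.20 (adjusted p = 0.942). The receptor gene kita, needed for melanocyte migration and survival, did not overlap between the groups, with 2.39 to 3.47 CPM in control and 1.86 to 2.298 CPM in ca_fgfr1, and its edgeR adjusted p was 0.866. The gene gch2 of pteridine synthesis, used by xanthophores, ranged from 207 to 621 CPM in control and from 180 to 536 CPM in ca_fgfr1.

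The crest genes were next compared with each other over the 8 libraries, by Pearson correlation of log2 CPM with exact permutation tests over 55 pairs. The coefficient was positive for 38 pairs, with a median of 0.26, and 1 pair had an adjusted p of at most 0.05. That pair was sox10 and snai1b (r = 0.93, exact permutation p = 0.000322, adjusted p = 0.0177; rho = 0.98, exact permutation p = 0.000397, adjusted p = 0.0218). It was 0.94 within control, 0.92 within ca_fgfr1 and 0.81 without the 2 libraries farthest from the median of sox10. Without ca_fgfr1 replicate 1 it was 0.92 (exact permutation p = 0.00119, adjusted p = 0.0655), and with group means subtracted 0.92 (exact permutation p = 0.00216, adjusted p = 0.104). The low counts of snai1b limit this pair, since its libraries differ by few reads.

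The pair twist1a and DLX2 ENSDARG00000079964 had r = 0.94 (exact permutation p = 0.00340, adjusted p = 0.0934) and rho = 0.88 (exact permutation p = 0.00724, adjusted p = 0.133). It was 0.73 without the 2 libraries farthest from the median of twist1a, and 0.77 without ca_fgfr1 replicate 1 (exact permutation p = 0.0421, adjusted p = 0.273), so its size rested partly on that library. Between the classes, sox10 and twist1a had r = -0.55 (exact permutation p = 0.110, adjusted p = 0.504) and rho = -0.81 (exact permutation p = 0.0218, adjusted p = 0.240). Their r was -0.85 within control and -0.85 within ca_fgfr1, each over only 4 libraries. The SOX9 IDs had r = 0.80 with each other (exact permutation p = 0.0135, adjusted p = 0.186), and twist1a and twist1b had r = -0.08 (exact permutation p = 0.949, adjusted p = 0.971). These libraries share depth and tissue makeup across genes, and the correlations describe single dissected hindbrains.

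**Figure D4:**
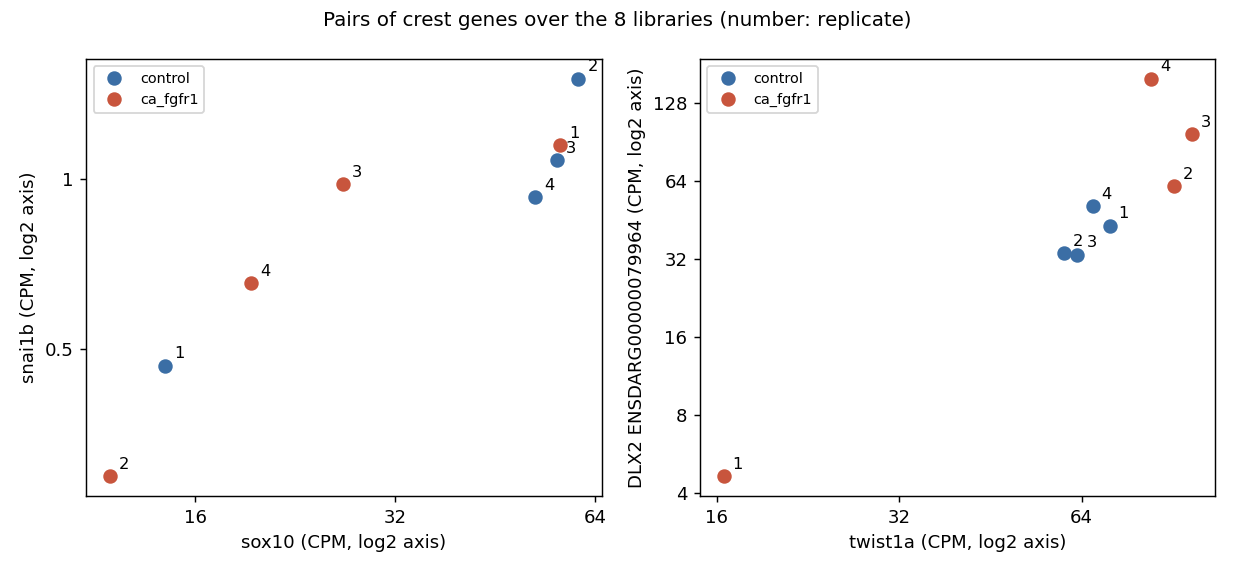
Levels in CPM on log2 axes in the 8 libraries, control in blue and ca_fgfr1 in red with replicate numbers, for sox10 and snai1b (left) and for twist1a and DLX2 ENSDARG00000079964 (right). On the left the libraries lie along a rising line (r = 0.93), and on the right ca_fgfr1 replicate 1 lies far below the other 7 libraries (r = 0.94 with it, 0.77 without it).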

How the data were processed

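Libraries were made from total RNA of single dissected hindbrains by SMARTer cDNA amplification and NexteraXT. Per the labels and the study's methods, the authors aligned single-end reads to GRCz10 with STAR 2.5.1b and estimated gene counts with RSEM 1.2.31. The deposited values are expected counts, rounded by the authors to whole numbers and not scaled. Columns carry a letter and a number, and the groups rest on taking C for control and F for ca_fgfr1. Strandedness was not stated, so antisense genes are uncertain. Symbols came from a table naming 81.9% of IDs, and no coordinates or sequences are given.

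Counts were tested across all genes passing filterByExpr with the quasi-likelihood F-test of edgeR 4.0.16 (R 4.3.3) with TMM factors, without covariates and with Benjamini-Hochberg adjustment. The common biological coefficient of variation was 0.398. CPM used TMM-scaled totals, with a prior count of 2 for log2 CPM. DESeq2 1.42.0, limma-voom (limma 3.58.1), other scalings and filters, the newer quasi-likelihood method, a replicate block and the omission of libraries were alternatives. The test was tested on simulated data. Named crest genes were those of the crest lists with an unadjusted p under 0.05, filled up to the 6 smallest, and the 8 genes most correlated with the early crest and ectomesenchyme members. A gene that this rule names is not reported here. The members and lists were chosen with earlier results of these data known, and others named were chosen after their values were seen. The embryos are separate samples of 1 clutch per the study's methods, and p-values measure their spread. No libraries were duplicates (chi-square per degree of freedom at least 23.8 between libraries of a group).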

Additional observations from a re-analysis of the deposited data

Results flagged for a closer look

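In 2 of the 22 groups of 4 libraries examined, 1 library lay far from the others in log2 CPM, where chance gives about 1 in 20 groups. For sox10 in control, replicate 1 had 14.4 CPM against 51.9 to 60.3 CPM in the other 3 controls. On the log2 scale this gap took 0.895 of the whole range of the group. For twist1a in ca_fgfr1, replicate 1 had 16.4 CPM against 83.4 to 97.4 CPM in the other 3. That gap was 0.913 of the range on the log2 scale. The cut was 0.829, and neither gap reaches it in plain CPM. The part of the dissection or of the library in these values was not tested.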

How the results depend on the processing

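No tested crest gene ID of the 10 genes met the study's criteria in any of the settings run, nor did leaving out any library change that. For snai1b and twist1b the count rule alone barred this in the main fit. Over the whole table edgeR gave 3 genes that met them. The count was 1 with relative log expression factors, 1 with library totals, 6 with no filter, 5 with a filter of 5 CPM in 4 libraries, 45 with DESeq2, 6 with limma-voom, 6 with the newer quasi-likelihood method, 0 with the replicate block and 0 without control replicate 1 and ca_fgfr1 replicate 2, and it ranged from 0 to 1 on leaving out each library. An adjusted p of 0.05 or less in place of 0.01 gave 9 genes. The replicate numbers did not pair the samples (correlations of deviations from -0.29 to 0.22), and the block left 586 genes at an unadjusted p under 0.05. Of the crest IDs, 2 had an unadjusted p under 0.05, and on leaving out each library this ranged from 1 (without ca_fgfr1 replicate 3 or 4) to 5 (without ca_fgfr1 replicate 1, where 6.6% of all tested genes did) and was 3 without control replicate 1, where 26.3% did. The sign of twist1a turned with limma-voom (-0.15) and with the replicate block (-0.0743), and its log2 fold change ranged from -0.0610 to 0.48 on leaving out each library. That of foxd3 turned with the replicate block (0.0316) and ranged from -0.26 to 0.21, and that of crestin ranged from -0.68 to 0.39. On leaving out each library, sox10 ranged from -1.24 to -0.44, tfap2a from -0.31 to -0.00354 (without ca_fgfr1 replicate 1), snai1b from -0.63 to -0.11 (without control replicate 2), and DLX2 ENSDARG00000079964 from 0.39 to 1.39, with 0.49 under the replicate block. The sox10 and snai1b pair held its adjusted p with relative log expression factors. The count of such pairs was 0 with group means subtracted and 0 without ca_fgfr1 replicate 1, the latter chosen after seeing the data, with r of 0.92 in each. It was 0 without control replicate 1 and ca_fgfr1 replicate 2, where 6 libraries allow no adjusted p below 0.0764 for a single pair, so that count says nothing about stability. The causes were not tested. Depth limits snai1b and MITF, which the stricter filter removed.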

Other observations

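The candidates were the 9339 tested genes with a symbol, members left out, that averaged 10 CPM or more. Genes whose log2 CPM over the 8 libraries was among the most like the mean standardised profile of the early crest IDs were ARID4A (Pearson r = 0.99), SAMHD1 (0.97), PARP16 (0.97), CHST2 (0.97), TRIB3 (0.97), BCL2L1 (0.96) and srsf7a (0.96). None of these belongs to the crest lists. Those most like the ectomesenchyme IDs were lpar2a (0.95), si:dkey-87o1.2 (0.95), ankrd10b (0.94), ovol1a (0.93), cdh1 (0.92), CITED2 (0.92), si:zfos-128g4.1 (0.92) and DCN (0.92), of which cdh1, the epithelial cadherin, is in the epidermis list. The early crest profile was lowest in control replicate 1 (-1.28, with -0.77 in the next lowest library). The ectomesenchyme profile was lowest in ca_fgfr1 replicate 1 (-1.34, with -0.52 in the next lowest). A shared low value in that 1 library can therefore carry much of these correlations, which were not computed without it. They are the highest of many and are given as descriptions over 8 libraries.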
